A study of Mus musculus with 16 samples.

Results

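The naive transcription factor network was examined through 9 genes: Zfp42, Esrrb, Tfcp2l1, Tbx3, Prdm14, Nr0b1, Nr5a2, Dppa3 and Spic. They were taken by symbol from a bulk RNA sequencing count table of mouse pluripotent cell lines, and all 9 were found among its 34042 gene entries. The table was read in 16 libraries of 4 groups. Formative stem (FS) cells in A3XR medium gave 6 libraries, namely passages 10, 12 and 14 of the line 5ar1 (FS 1 to FS 3) and passages 12, 4 and 5 of the line 5ar3 (FS 4 to FS 6). The EpiSC_AF group was epiblast stem cells (EpiSCs) of 1 line, AF32, grown in AF medium and taken at passages 13, 14 and 15. The EpiSC_AFX group was the EpiSC line AFX6, grown in AFX medium and taken at passages 12, 5 and 8. Naive embryonic stem (ES) cells in 2iL medium gave 4 libraries of the line E14IV-C (passages 12, 13, 15 and 20). No genotype, strain or sex is given in the labels for these lines. Each group other than FS was 1 line, so line and medium cannot be told apart there, and p-values measure the spread between passages of these lines.

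Naive pluripotency is the state of the early epiblast, and 2iL medium, which combines LIF with inhibitors of MEK and GSK3, holds mouse ES cells in it. LIF acts through Stat3, and GSK3 inhibition relieves repression by Tcf7l1. Both inputs feed a set of transcription factors that activate one another: Tfcp2l1 and Esrrb sit close to the signals, Tbx3, Nr5a2, Nr0b1 and Prdm14 act beside them, and Zfp42 (Rex1), Dppa3 (Stella) and Spic are widely used as markers of the state. Formative cells and EpiSCs correspond to later epiblast stages, in which this network has been dismantled. The AFX and A3XR media contain a Wnt pathway inhibitor, and A3XR also a retinoic acid receptor antagonist.

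RefSeq promoter windows of 300 bases on GRCm38.p6, from 250 bases before to 50 after the annotated start, were matched for 6 of the 9 genes (8 windows). A set of 4 is shown, chosen by level. These genes cover deep losses (Zfp42, Spic), the largest residual level in CPM (Tfcp2l1) and the residual level called different between FS and EpiSC_AF (Nr0b1). Each is printed 5′ to 3′ on the strand of its gene, and capitals mark matches to the 5 motifs searched on both strands.
Zfp42: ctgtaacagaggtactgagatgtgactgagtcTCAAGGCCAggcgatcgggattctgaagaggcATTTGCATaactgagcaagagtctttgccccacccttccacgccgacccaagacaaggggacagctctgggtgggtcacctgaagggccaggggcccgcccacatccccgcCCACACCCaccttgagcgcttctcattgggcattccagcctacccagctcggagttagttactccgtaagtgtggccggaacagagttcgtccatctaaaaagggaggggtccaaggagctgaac
Tfcp2l1: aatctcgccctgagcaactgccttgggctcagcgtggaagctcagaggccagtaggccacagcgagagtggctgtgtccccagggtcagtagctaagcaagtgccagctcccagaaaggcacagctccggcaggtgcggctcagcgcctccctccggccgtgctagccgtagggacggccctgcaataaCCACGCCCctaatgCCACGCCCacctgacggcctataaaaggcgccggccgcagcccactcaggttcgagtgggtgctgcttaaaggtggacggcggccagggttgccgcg
Nr0b1: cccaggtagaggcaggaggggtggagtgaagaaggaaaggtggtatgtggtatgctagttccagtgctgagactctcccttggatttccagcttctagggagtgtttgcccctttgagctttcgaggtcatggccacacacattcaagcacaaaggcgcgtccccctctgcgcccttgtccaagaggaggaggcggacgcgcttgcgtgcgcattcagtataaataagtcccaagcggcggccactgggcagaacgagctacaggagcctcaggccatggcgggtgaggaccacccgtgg
Spic: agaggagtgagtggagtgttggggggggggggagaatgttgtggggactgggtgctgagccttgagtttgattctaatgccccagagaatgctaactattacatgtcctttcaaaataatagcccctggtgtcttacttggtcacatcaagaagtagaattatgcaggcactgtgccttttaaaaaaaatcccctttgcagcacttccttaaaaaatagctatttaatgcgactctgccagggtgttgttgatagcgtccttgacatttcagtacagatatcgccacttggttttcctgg

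The windows lie at chr8:43306960-43307259 (minus strand, Zfp42), chr1:118627695-118627994 (plus strand, Tfcp2l1), chrX:86191525-86191824 (plus strand, Nr0b1) and chr10:88682974-88683273 (minus strand, Spic). The Zfp42 window held 3 of the motif types. TCAAGGNCA, the half-site read by nuclear receptors such as Esrrb and Nr5a2, began 218 bases before the start and occurs in 1.62% of the 32851 RefSeq windows. ATTTGCAT, the octamer read by Oct4, began 186 bases before the start and occurs in 1.74% of windows. GGGNGTGG, a Klf-type motif present in 17.6% of windows, matched in the Zfp42 window 75 bases before the start, in the Tfcp2l1 window 61 and 47 bases before it and in a window of Nr5a2 157 bases before it. The Stat-type motif TTCNNNGAA, in 8.30% of windows, matched once in a window of Esrrb, and the Tcf/Lef-type motif CTTTGAT, in 3.73% of windows, matched in no window of these genes. The Nr0b1 and Spic windows held none of the 5 motifs, which says only that these letters are not in those windows. Tfcp2l1 had 21 CpG dinucleotides and Nr0b1 14, against a median of 7 over all windows, while Spic had 3.

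Libraries held between 22069338 and 33290250 counts. Levels are CPM, the counts of a gene relative to library size, with sizes scaled by the trimmed mean of M values (TMM). The mitochondrial rRNA gene mt-Rnr2 took 9.96% to 38.1% of the counts, with the highest share in ES 1. Without ES 1 the log2 fold change of FS against ES was -9.21 for Esrrb, -8.70 for Tfcp2l1 and -5.85 for Nr0b1, against -9.14, -8.57 and -5.87 with it. Formative epiblast genes, among them Fgf5 and Otx2, were called higher in FS than in ES for 8 of 8 listed genes and also in both EpiSC groups. Over all genes tested, 32.9% were called higher in FS, 28.5% in EpiSC_AFX and 29.7% in EpiSC_AF. Pou5f1 (Oct4) stood at 717 ± 56.6 CPM in ES and 722 ± 344 CPM in FS (SD, n = 4 and 6). Pou5f1 was not called between FS and ES (edgeR adjusted p = 0.972). The formative epiblast genes set ES apart from the other groups and do not check the FS label against the EpiSC labels.

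The 9 genes were all expressed in ES cells, over a wide range of levels. Per kilobase of exon, Tfcp2l1 was at 183 ± 41.5 CPM per kb and Zfp42 at 175 ± 30.5 (SD, n = 4), and the ranges of these neighbours overlapped. Esrrb followed at 106 ± 12.7 CPM per kb, below every Zfp42 value and above every value of the next gene. Nr0b1 (28.5 CPM per kb), Dppa3 (27.1), Nr5a2 (23.8), Prdm14 (19.3), Tbx3 (16.7) and Spic (13.6) then formed a graded series in which each neighbouring pair overlapped. Dppa3 varied most among the ES libraries, at 33.2, 10.9, 19.7 and 33.0 CPM in ES 1 to ES 4. Dppa3 has a near copy, Dppa3-ps, which is 98.2% identical over 451 bases and had 57 to 206 counts in ES libraries, so how the counting split reads between them is uncertain.

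**Figure D1:**
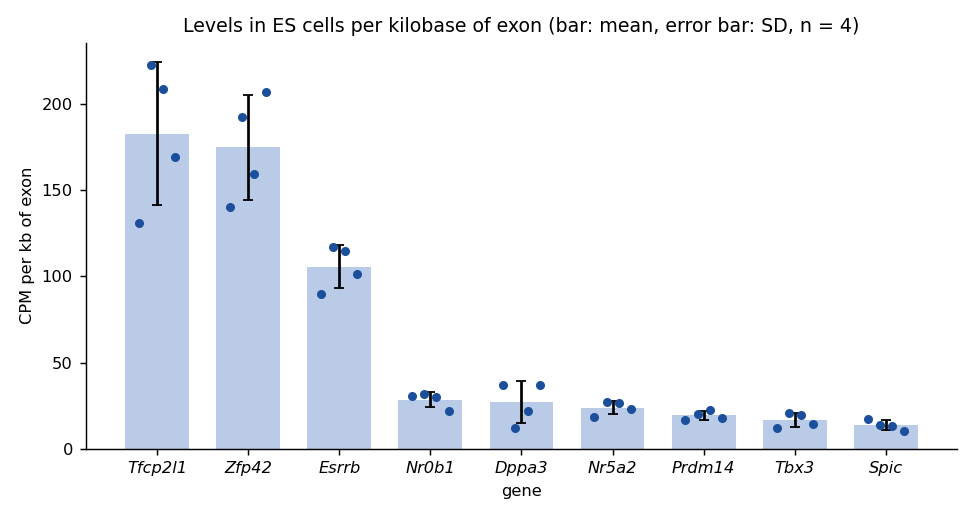
Levels of the 9 genes in the 4 ES libraries in CPM per kilobase of exon (vertical axis), with the mean as a bar from 0, the SD as an error bar and each library as a point. Tfcp2l1, Zfp42 and Esrrb lie above every value of the other 6 genes, which overlap with their neighbours.

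Outside ES cells all 9 genes were at a small part of their ES level. Each of the 9 genes was called lower than in ES in FS, in EpiSC_AFX and in EpiSC_AF at an adjusted p under 0.05. Over all 18555 genes tested, 29.9% passed in the lower direction for FS against ES, 26.2% for EpiSC_AFX and 27.0% for EpiSC_AF. The 3 comparisons share the ES libraries. In a fit of the FS libraries alone, 3 of the 9 genes (Esrrb, Tfcp2l1 and Nr0b1) passed the filter on low counts, so genes that passed through their ES level had to differ, and their number is not support for anything. The size of the difference is the measurement of interest. The median log2 fold change of the 9 genes was -9.14 in FS, -10.54 in EpiSC_AFX and -9.92 in EpiSC_AF, against 0.04, 0.01 and 0.01 over all genes tested. The 4 genes at the floor of each group were then set to their bound where the fitted value lay below it. These medians became -9.14, -9.84 and -9.69. In bulk RNA, fewer cells with a transcript and less transcript per cell cannot be told apart.

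Among the 9243 genes with at least 10 CPM in ES, the median gene kept 85.2% of its ES level in FS, and 181 genes (1.96%) kept under 1%. All of the 9 genes except Nr0b1 were among those 181. Counted from the deepest loss in FS, Zfp42 ranked 13, Spic 21, Dppa3 27, Prdm14 30, Esrrb 70, Tbx3 75, Nr5a2 82, Tfcp2l1 91 and Nr0b1 231. The order of the first 4 is not resolved, since they had 7, 2, 1 and 2 counts over the FS libraries and their counting intervals overlapped. In EpiSC_AFX (186 genes under 1%) and EpiSC_AF (171 genes) all 9 were below 1% of ES.

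**Figure D2:**
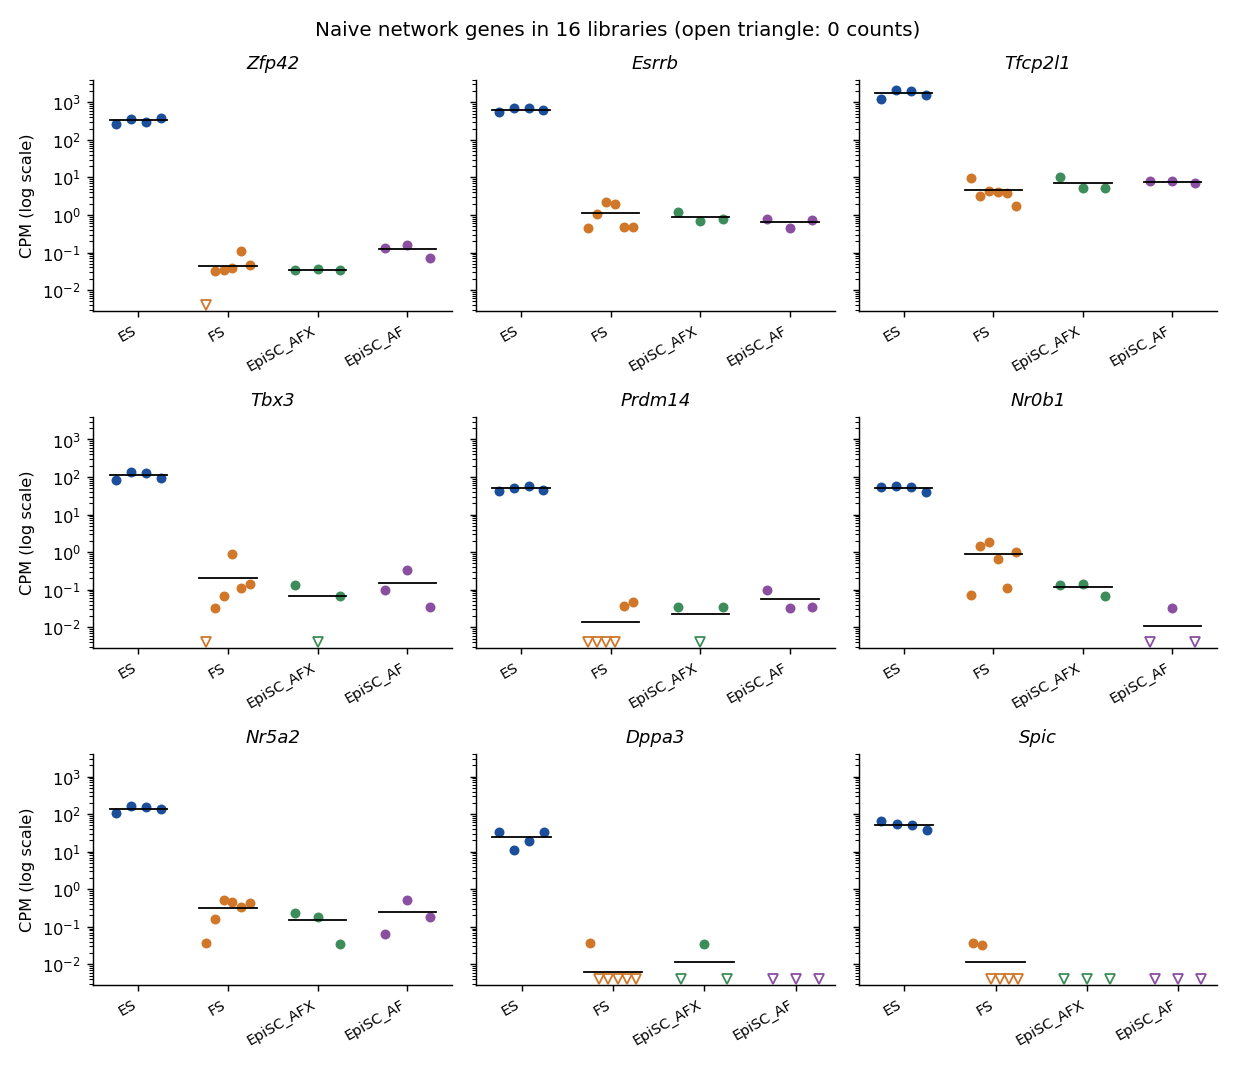
CPM of each gene (log axis) in ES, FS, EpiSC_AFX and EpiSC_AF, with 1 point per library, a line at the group mean where it is above 0 and an open triangle for a library with 0 counts. For every gene the 4 ES libraries lie above the 12 others, which spread over several orders of magnitude between genes.

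Zfp42 (chr8:43295063-43306980, minus strand, GRCm38), a zinc finger gene used as a reporter of the naive state, stood at 263, 362, 300 and 389 CPM in ES 1 to ES 4. In FS it had 0 to 3 counts per library (0 to 0.111 CPM, median 0.0360), and in EpiSC_AFX 1 count in each of 3 libraries. In EpiSC_AF it had 4, 5 and 2 counts. The FS libraries and the ES libraries were separated by more than 3 orders of magnitude, and FS held 0.0133% of the ES mean, EpiSC_AFX 0.0105% and EpiSC_AF 0.0368%. Zfp42 was not called between FS and EpiSC_AF (ratio of summed counts 0.352, 95% counting interval 0.116 to 0.995, adjusted p = 0.115), though it was called without FS 5 (adjusted p = 0.0498).

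Dppa3 (chr6:122626410-122630272, plus strand), a maternal factor that protects the maternal genome of the zygote from demethylation and a marker of germ cells, had 242 to 775 counts in the ES libraries. Outside ES it gave 1 count in FS 1, 1 in EpiSC_AFX 2 and 0 in the other 10 libraries. EpiSC_AF had no count in its 3 libraries, so the ES level was at least 726-fold higher (floor of 3 counts over the group). Spic (chr10:88674772-88685015, minus strand), an Ets family factor known in iron-recycling macrophages and abundant in naive ES cells, behaved alike, with 916 to 1192 counts in ES. It had 1 count in each of FS 1 and FS 2 and 0 in 10 of the 12 libraries, and ES was at least 1521-fold higher than EpiSC_AFX and at least 1570-fold higher than EpiSC_AF. Exons of Spic match 133 other genes over at most 359 bases, so a stray count cannot be assigned with certainty.

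Prdm14 (chr1:13113457-13127163, minus strand), which represses FGF receptor signalling and DNA methyltransferases in naive and germ cells, was at 42.4, 52.4, 57.4 and 46.2 CPM in ES. It had 0 counts in FS 1 to FS 4, 1 count in FS 5 and FS 6, at most 1 in EpiSC_AFX, and 3, 1 and 1 in EpiSC_AF. FS held 0.0282% of the ES level, EpiSC_AFX 0.0455% and EpiSC_AF 0.111%. All groups outside ES were at the floor of 3 counts per library, so no fold among them is given.

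Esrrb (chr12:86361117-86521628, plus strand), an orphan nuclear receptor and a direct target of Tcf7l1 repression, kept a measurable level in every library. ES values were 542, 707, 692 and 612 CPM. FS values ran from 0.445 to 2.17 CPM (median 0.781), EpiSC_AFX values were 1.18, 0.678 and 0.780, and EpiSC_AF values were 0.771, 0.458 and 0.743. The ranges of the 3 groups overlapped. FS held 0.174% of ES, EpiSC_AFX 0.138% and EpiSC_AF 0.103%. The log2 fold change of Esrrb was -9.14 in FS against ES (SE 0.39, edgeR adjusted p = 4.13e-12), and FS and EpiSC_AFX did not separate (0.35, SE 0.44, adjusted p = 0.763).

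Tfcp2l1 (chr1:118627945-118685168, plus strand), a factor of the CP2 and grainyhead family downstream of both Stat3 and GSK3 inhibition, had the largest residual level in CPM. Per kilobase of exon, its FS level (0.478 CPM per kb) was like that of Nr0b1 (0.479). Tfcp2l1 was at 1233, 2101, 1969 and 1594 CPM in ES. FS libraries gave 9.86, 3.19, 4.30, 4.07, 3.94 and 1.70 CPM, EpiSC_AFX 10.3, 5.28 and 5.25, and EpiSC_AF 7.84, 8.14 and 7.15. FS 1 stood at the EpiSC level, and the other 5 FS libraries lay below every EpiSC library. As means this was 0.262% of ES in FS, 0.403% in EpiSC_AFX and 0.447% in EpiSC_AF. FS was not called lower than EpiSC_AF (log2 fold change -0.77, SE 0.36, edgeR adjusted p = 0.158) or than EpiSC_AFX (-0.62, SE 0.36, adjusted p = 0.394). Without FS 1 both differences were called, at -1.16 against EpiSC_AF (adjusted p = 0.00766) and -1.01 against EpiSC_AFX (adjusted p = 0.0403), so 1 library decides these calls. Over the 27 alternatives the adjusted p ran from 0.00766 to 0.480 against EpiSC_AF and from 0.0403 to 0.851 against EpiSC_AFX. With the line 5ar3 alone, FS was also called lower than EpiSC_AF (adjusted p = 0.0172). A small nuclear RNA gene, Gm23497, lies on the same strand wholly inside Tfcp2l1 exon, which shares 130 bases with it.

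Tbx3 (chr5:119670669-119684724, plus strand), a T-box factor that can sustain ES cells without LIF, was at 81.3, 137, 130 and 95.7 CPM in ES. Its residual level was uneven: FS 4 had 24 counts (0.913 CPM) and the other 5 FS libraries 0 to 3. EpiSC_AFX libraries had 4, 0 and 2 counts, and EpiSC_AF libraries 3, 10 and 1. FS held 0.190% of ES on average, EpiSC_AFX 0.0610% and EpiSC_AF 0.138%, with most of the FS figure coming from FS 4. The log2 fold change of FS against EpiSC_AF was 0.39 (SE 0.96, adjusted p = 0.838) and turned to -1.17 without FS 4. Against EpiSC_AFX it was 1.51 (SE 1.15, adjusted p = 0.555) and turned to -0.05 without FS 4. An antisense gene, Tbx3os1, overlaps 115 bases of Tbx3 exon, and the strand setting of the counting is not given in the sources used here.

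Nr5a2 (chr1:136842571-136960448, minus strand), a nuclear receptor that binds the Pou5f1 locus and can replace Oct4 in reprogramming, was at 110, 161, 155 and 136 CPM in ES. FS had 1 to 15 counts per library (0.0371 to 0.508 CPM, median 0.378). EpiSC_AFX had 7, 5 and 1 counts and EpiSC_AF 2, 16 and 5. FS held 0.227% of ES, EpiSC_AFX 0.106% and EpiSC_AF 0.181%, with ranges that overlapped in every pair. Nr5a2 was not called between FS and EpiSC_AFX (log2 fold change 1.06, SE 0.66, edgeR adjusted p = 0.438) or between FS and EpiSC_AF (0.30, SE 0.58, adjusted p = 0.790). The latter turned to -0.17 without EpiSC_AF 1 and to -0.11 with the line 5ar1 alone.

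**Figure D3:**
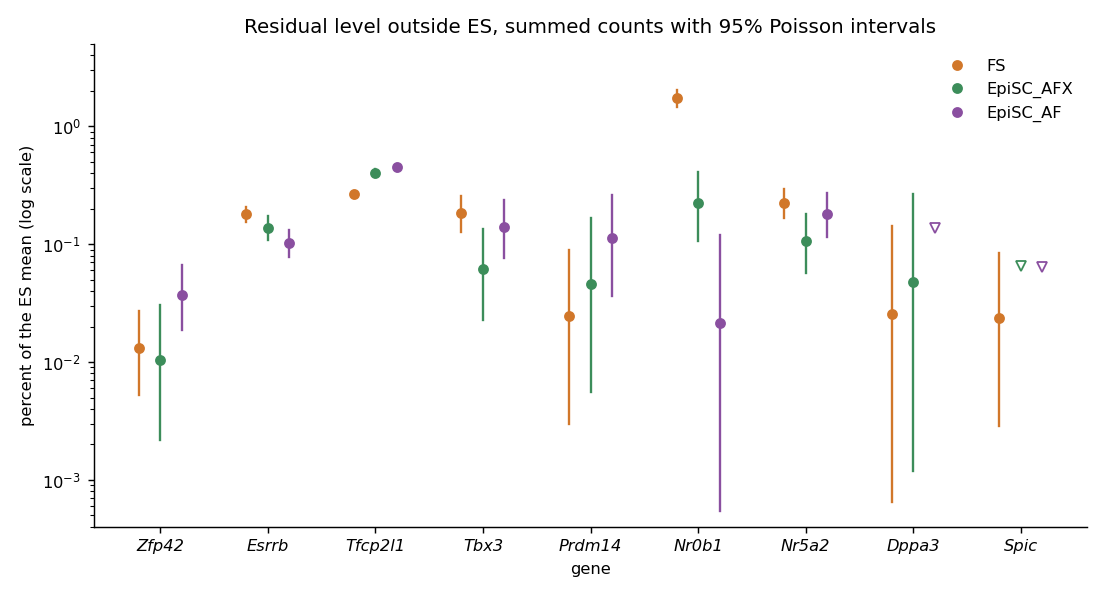
Level of each gene outside ES as a percent of the ES mean (log axis), from the counts summed over FS (6 libraries), EpiSC_AFX (3) and EpiSC_AF (3), with 95% Poisson intervals that cover counting error only. Open triangles mark groups with no count, drawn at the level that 3 counts over the group would give, with no interval. Nr0b1 in FS is the 1 value above 1%.

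Nr0b1 (Dax1, chrX:86191764-86195947, plus strand) is an X-linked orphan receptor that binds Oct4, Esrrb and Nr5a2 and holds back differentiation. In the reported fit it was called between groups outside ES only for FS against EpiSC_AF. It was at 55.1, 56.9, 54.8 and 39.5 CPM in ES. FS libraries gave 0.0741, 1.43, 1.90, 0.647, 0.111 and 1.04 CPM, from 2, 45, 56, 17, 3 and 22 counts. EpiSC_AFX libraries gave 4, 4 and 2 counts, and EpiSC_AF libraries 0, 1 and 0. Every FS library was above every EpiSC_AF library, while FS 1 and FS 5 lay within the range of EpiSC_AFX. FS held 1.68% of the ES level, EpiSC_AFX 0.223% and EpiSC_AF 0.0211%.

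Between FS and EpiSC_AF, Nr0b1 was called higher in FS (log2 fold change 5.79, SE 1.21, edgeR adjusted p = 0.00294). It was the 1 gene of the 9 called in that comparison, in which 16.6% of all genes tested were called. Because EpiSC_AF had 1 count in all, the fitted fold is imprecise: the ratio of the summed counts was 80.3, with a 95% counting interval of 14.2 to 3192. The call held under 27 of 27 alternatives, with adjusted p from 0.000170 to 0.0222. Between FS and EpiSC_AFX the summed ratio was 7.78 (4.11 to 16.6), and the difference narrowly missed the threshold (log2 fold change 2.88, SE 0.82, adjusted p = 0.0523). It was called under 7 of 27 alternatives, among them DESeq2 (adjusted p = 0.0176), each FS line alone (0.0266 for 5ar1 and 0.0357 for 5ar3) and fits without FS 1 (0.0136) or FS 5 (0.0169). Over the 27 the adjusted p ran from 0.0136 to 0.223. None of the 9 genes was called between FS and EpiSC_AFX in the reported fit, where 5.00% of all genes were; 1 of the 9 had an unadjusted p under 0.05, and DESeq2 called 1, which was Nr0b1 in both cases.

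Markers of other cell types differed between the groups. The summed level of 6 primitive endoderm markers was 61.2 to 181 CPM in EpiSC_AF, 1.12 to 39.9 in EpiSC_AFX, 0.606 to 6.74 in FS and 2.26 to 3.27 in ES. That of 6 mesoderm markers was 51.5 to 187 CPM in EpiSC_AF, 2.07 to 20.8 in EpiSC_AFX, 1.37 to 4.46 in FS and 5.10 to 14.2 in ES. Of these markers, none was at 0 in all libraries of a group. In EpiSC_AF the primitive endoderm sum was mostly Foxa2 (39.3 CPM), Sox17 (39.0) and Gata6 (19.0), with Sox7 at 0.0872. The mesoderm sum there was mostly T (93.3 CPM) and Mixl1 (19.2), with Tbx6 at 0.811, Hand1 at 0.608 and Mesp1 at 0.173. These sums rest on a few genes of each list, so the list names do not identify a cell type. A list of 7 fibroblast markers summed to 43.1 to 89.1 CPM in EpiSC_AF, 18.5 to 44.8 in FS, 18.4 to 29.9 in EpiSC_AFX and 5.25 to 5.47 in ES, with Twist2 at 0 in ES. That of 6 trophoblast markers was 51.1 to 66.4 CPM in ES and 5.05 to 17.1 in the other groups, with Elf5 at 0 in ES, FS and EpiSC_AFX. In ES most of this sum was Tfap2c (52.4 CPM), which is also in the germ cell list. Cdx2 was at 0.649 CPM in ES and Hand1 at the floor. Ascl2 was lower in ES (0.596 CPM) than in FS (4.92), and Krt7 was highest in EpiSC_AF (9.29). The part of these cell types in the differences of the 9 genes was not tested. The 6 markers of 2-cell-like cells, a rare state in naive cultures, summed to 0.425 to 1.04 CPM in ES and to at most 0.106 CPM elsewhere. A list of 6 macrophage markers, given because Spic is known in macrophages, summed to 12.4 to 22.0 CPM in ES, 2.83 to 9.45 in FS, 3.74 to 5.86 in EpiSC_AFX and 2.48 to 2.51 in EpiSC_AF. In ES most of this sum was Cd68 (16.1 CPM), while Adgre1 and Vcam1 were at 0 and Ptprc and Csf1r at the floor.

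Between the EpiSC groups none of the 9 genes was called, against 4.26% of all genes tested. Of the 9, 1 (Zfp42) had an unadjusted p under 0.05, and DESeq2 called 0. Zfp42 had 1 count in each EpiSC_AFX library and 2 to 5 in EpiSC_AF, a summed ratio of 0.282 with a counting interval of 0.0504 to 1.07. Nr0b1 had 2 to 4 counts per library in EpiSC_AFX and 0 to 1 in EpiSC_AF, and its edgeR adjusted p was 0.441.

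**Figure D4:**
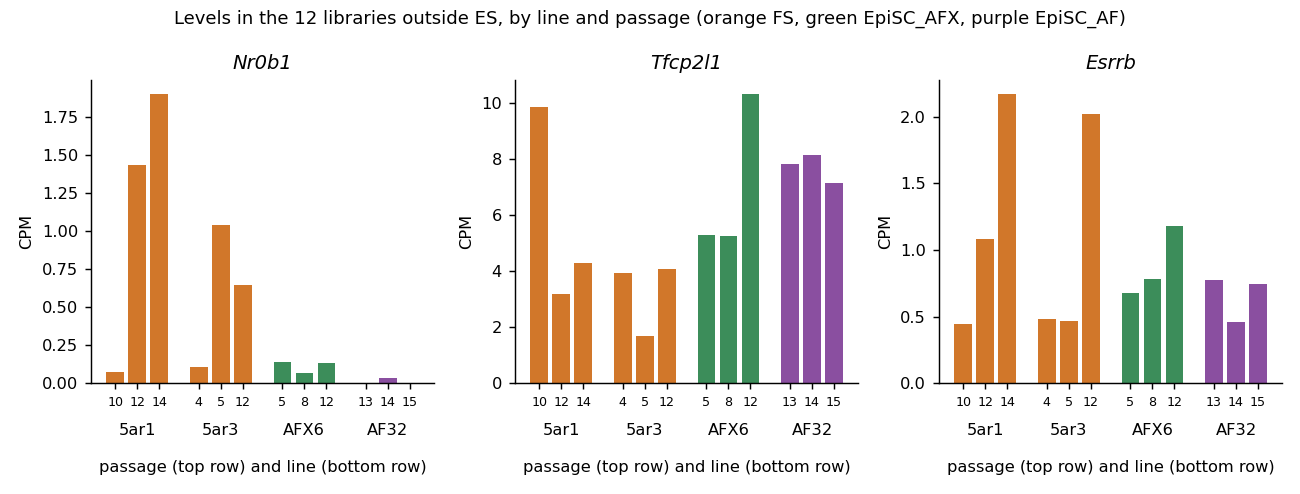
CPM of Nr0b1, Tfcp2l1 and Esrrb in the 12 libraries outside ES, with 1 bar per library from 0, ordered by passage within each line. The tallest Nr0b1 bars are in FS, while those of FS 1 and FS 5 lie within the range of EpiSC_AFX. Tfcp2l1 in FS 1 (5ar1, passage 10) reaches 9.86 CPM, and Esrrb is highest at passage 14 of 5ar1 (2.17 CPM) and passage 12 of 5ar3 (2.02 CPM).

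The FS lines 5ar1 and 5ar3 gave a measure of how far lines in 1 medium differ. None of the 9 genes was called between them, against 3.88% of all genes tested. At an unadjusted p under 0.05 there was 1, Tbx3, which DESeq2 also called (adjusted p = 0.0469). Tbx3 had 3 counts in the 5ar1 libraries and 30 in the 5ar3 libraries, a ratio of 0.0849 (counting interval 0.0166 to 0.273), and 24 of the 30 came from FS 4 (edgeR adjusted p = 0.0887). Tfcp2l1 (log2 fold change 0.82, SE 0.40, adjusted p = 0.295) and Nr0b1 (0.98, SE 0.66, adjusted p = 0.460) leaned towards 5ar1 without being called. For Tfcp2l1, FS 1 was at 9.86 CPM, while FS 2 and FS 3 (3.19 and 4.30 CPM) overlapped the 5ar3 libraries (1.70 to 4.07 CPM). Over the alternatives the log2 fold change of Tfcp2l1 ran from 0.17 to 1.10.

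Esrrb was also read against passage number within the FS lines, a comparison chosen after its values were seen. It was at 0.445, 1.08 and 2.17 CPM at passages 10, 12 and 14 of 5ar1, and at 0.479, 0.471 and 2.02 CPM at passages 4, 5 and 12 of 5ar3. With a common slope and a mean per line, the slope was 0.32 log2 units per passage (SE 0.07, unadjusted p = 0.00190, edgeR adjusted p = 0.378). Of 16662 genes tested for such a slope 0% were called, while 1760 had an unadjusted p under 0.05. Leaving out each FS library in turn gave slopes from 0.28 to 0.54 and adjusted p from 0.0597 to 0.998. The slope without FS 4, the highest of these, was 0.54, and 1264 genes were called in that fit.

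Relatives of the 9 proteins were read from a list of 12 genes. Of 8 relatives tested, 1 was called higher and 3 lower in FS than in ES, with a median log2 fold change of -0.24. Over all genes the shares were 32.9% higher and 29.9% lower, so nothing is read from these counts. Esrra, an estrogen-related receptor like Esrrb, was at 13.9 ± 2.78 CPM in ES and 8.39 ± 2.62 in FS (log2 fold change -0.73, adjusted p = 0.00649). Esrrg, another member of that family, had at most 1 count in an ES library and was at 0.560 ± 0.182 CPM in FS (adjusted p = 8.52e-05). Per kilobase of exon, FS cells therefore held 1.91 CPM of Esrra, 0.184 of Esrrb and 0.0902 of Esrrg. Tfcp2 and Ubp1, relatives of Tfcp2l1, stood at 17.5 and 86.6 CPM in FS against 22.0 and 95.5 in ES, and neither was called. Yy1, from whose family Zfp42 arose, was at 58.8 CPM in FS and 57.3 in ES. Prdm1, related to Prdm14, fell to 0.140 CPM in FS from 24.7 in ES but was at 8.65 CPM in EpiSC_AF, a difference between FS and EpiSC_AF with a log2 fold change of -5.89 (SE 0.62, adjusted p = 7.54e-06).

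Of 16 other naive genes, 16 were called lower than in ES in each of the 3 groups. Over all genes tested, 29.9% were called lower in FS, 26.2% in EpiSC_AFX and 27.0% in EpiSC_AF. The median log2 fold changes of the 16 were -5.74 in FS, -3.90 in EpiSC_AFX and -3.89 in EpiSC_AF. Their residual levels were uneven. Tcl1 and Dppa5a, an Akt cofactor and a KH-domain protein, fell as far as the 9 genes did, to 0.0413 and 0.261 CPM in FS from 114 and 842 in ES. Nanog kept 126 ± 26.6 CPM in FS (SD, n = 6) of 827 ± 86.4 in ES (SD, n = 4). Relative to EpiSC_AF, FS cells had 8 of the 16 at a called lower level, against 8.81% of all genes: Klf2, Klf5, Nanog, Gbx2, Stat3, Socs3, Lifr and Fbxo15. Klf5, a Kruppel-like factor of the naive network, was at 2.04 ± 0.624 CPM in FS, 10.8 ± 3.28 in EpiSC_AFX and 9.87 ± 3.15 in EpiSC_AF (adjusted p = 3.04e-05 and 1.49e-05). Gbx2, a LIF target, was at 0.184, 0.998 and 1.38 CPM in the same order. Nr0b1 was called higher in FS than in EpiSC_AF. These 8 genes were picked by their call in that comparison, so nothing is read from the contrast with Nr0b1.

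Regulators of the exit from the naive state, a list of 12, had 5 genes called higher and 5 lower in FS than in ES, against 32.9% and 29.9% of all genes, so the split is described and nothing is read from it. Tcf7l1, a repressor of Esrrb, rose from 11.9 to 26.0 CPM (log2 fold change 1.12, SE 0.28, adjusted p = 0.00246). Otx2 rose from 14.9 to 175 CPM and Dnmt3b from 60.7 to 1308 CPM, while Etv5 fell from 312 to 112 CPM. Of 6 core pluripotency genes, 3 were above ES in FS by the same test, as were 32.9% of all genes, and 1, Sox2, was lower (77.6 against 211 CPM, adjusted p = 1.30e-05). A list of 8 germ cell genes, which includes Dppa3 and Prdm14, was below ES in FS for 8 of 8 by the same test, against 29.9% of all genes. Dppa3 and Prdm14 were at the floor in FS and passed the low-count filter through ES, so nothing is read from this count. Tfap2c, a partner of Prdm14 in germ cell specification, was at 52.4 CPM in ES and 0.611 in FS, and Dazl at 53.8 and 0.0536 CPM.

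Across the 16 libraries the log2 CPM profiles of the 9 genes correlated with one another with r between 0.857 and 0.997 (median 0.978), a value set by the gap between ES and all other libraries. The 10 genes most like the mean profile, among 9234 genes with at least 10 CPM in ES, were 1700097N02Rik, Naa11, Nlrp4f, Gm14820, Rpl10l, Fmr1nb, Timm8a2, Cdx1, Osm and Gm5096, with r from 0.996 to 0.998 over 16 libraries. Of the same pool 507 genes had r over 0.95. By rank correlation 0 of the 10 were among the first 10, and with total counts 9 of 10 were. Each gene's single most similar profile was Naa11 for Zfp42, Itpka for Esrrb, Elf3 for Tfcp2l1, Rec114 for Tbx3, D1Pas1 for Prdm14, Slc5a11 for Nr0b1, Ccdc141 for Nr5a2, Hormad1 for Dppa3 and Osm for Spic. Elf3, an epithelial Ets factor, followed Tfcp2l1 (r = 0.991) with 95.1 CPM in ES, 4.48 in FS, 7.02 in EpiSC_AFX and 6.60 in EpiSC_AF. Slc5a11, most like Nr0b1 (r = 0.981), had mean levels of 0.704 CPM in FS, 0.297 in EpiSC_AFX and 0.286 in EpiSC_AF.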

How the data were processed

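RNA sequencing of 16 libraries was read from a deposited table of raw counts per gene that the authors made with Trim Galore, TopHat2 2.1.0 and featureCounts 1.5.0 on mm10, per the submitters' processing notes. Libraries came from a directional kit, per the labels' protocols. The annotation, the strand setting and the handling of multiply mapped reads are not given in the sources used here. A further 6 columns matched no sample and were not used. Groups follow the labelled culture condition.

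Counts were fitted with edgeR 4.0.16 in R 4.3.3 (filterByExpr by group, TMM, robust quasi-likelihood test, 1 mean per group over all 16 libraries). P-values were Benjamini-Hochberg adjusted over the 18555 genes tested, and genes were called at an adjusted p under 0.05. The FS lines were compared with 1 mean per line. Levels are CPM on the TMM scale, and a group with at most 3 counts in each library was treated as at the floor. A fold against a group with no count was computed against 3 counts over the whole group. Intervals are exact 95% Poisson or binomial intervals and cover counting error only. Coordinates and exon lengths came from the GENCODE M21 annotation of GRCm38, the same build, in which all 9 genes were found under the same symbol. Promoter windows came from RefSeq.

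The 9 genes and all lists were chosen with earlier results of these data known. Named genes were the 9, the genes of the lists, the 10 genes most correlated with their mean profile and the gene most correlated with each. Alternatives were DESeq2 1.42.0 (Wald test and size factors), total counts, other low-count filters, only the groups compared, 1 mean per line, passage as a covariate, single FS lines, no mitochondrial rRNA, and leaving out each library. The passage slope was chosen after seeing the data.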

Additional observations from a re-analysis of the deposited data

Results flagged for a closer look

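Of 18 pairs of a gene and a group of 4 to 6 libraries, 3 were flagged for a library that stood far from the others of its group. About 1 in 20 such groups holds such a library by chance. Some of the pairs were at the floor in FS, where the 1 count of Dppa3 in FS 1 was not flagged. The 3 of 18 are therefore not set against that share. Tfcp2l1 was at 9.86 CPM in FS 1, the passage 10 library of 5ar1, against 1.70 to 4.30 CPM in the other FS libraries. Tbx3 was at 0.913 CPM in FS 4, the passage 12 library of 5ar3, against at most 0.141 CPM in the others. Nr0b1 was at 39.5 CPM in ES 4, the passage 20 library, against 54.8 to 56.9 CPM in the other ES libraries.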

How the results depend on the processing

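In FS against ES the log2 fold change ran from -9.45 to -8.65 for Esrrb, from -9.03 to -8.22 for Tfcp2l1 and from -6.46 to -5.50 for Nr0b1 over 27 alternatives, all called lower. The other 6 genes passed the low-count filter through ES, so their calls against ES say nothing about stability. With total counts in place of TMM the median of all genes moved by up to 0.36 on the log2 scale (FS against ES, from 0.04 to 0.40), and Esrrb in ES was at 554 CPM in place of 638. Calls between groups outside ES rested on few counts. Between FS and EpiSC_AFX, 1 gene was called with total counts, 1 mean per line, 5ar1 alone, 5ar3 alone or DESeq2, and 0 to 2 when each library was left out (Nr0b1, and Tfcp2l1 without FS 1). Between FS and EpiSC_AF, 2 were called with 5ar3 alone, and 1 to 2 when each library was left out. Between the FS lines, DESeq2 called 1. The cause was not tested.

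Of the log2 fold changes followed through the alternatives, 819 kept direction and side of the threshold, 10 passed it and 17 changed sign, none of the 17 in a called difference. The 819 include comparisons against ES, also of genes that passed the low-count filter through ES, which could hardly change. Their number is therefore no measure of stability. All of the 10 and the 17 were in comparisons outside ES. With 5ar1 alone, Tbx3 was at -0.93 in FS against EpiSC_AFX and -2.05 against EpiSC_AF, and Nr5a2 at -0.11 against EpiSC_AF. With 1 mean per line, Tbx3 was at -0.35 against EpiSC_AF. With passage as a covariate, Tfcp2l1 was at 0.14 in EpiSC_AFX against EpiSC_AF and Esrrb at -0.23 in 5ar1 against 5ar3. Leaving out each library in turn, Tbx3 ran from -0.049 to 2.41 (FS against EpiSC_AFX), from -1.17 to 1.54 (FS against EpiSC_AF) and from -2.01 to 0.030 (EpiSC_AFX against EpiSC_AF). Nr5a2 ran from -0.17 to 1.38 (FS against EpiSC_AF) and from -1.25 to 0.32 (EpiSC_AFX against EpiSC_AF). Tfcp2l1 ran from -0.55 to 0.016 (EpiSC_AFX against EpiSC_AF), and Esrrb from -0.37 to 1.36 (5ar1 against 5ar3). No paired analysis was possible because the labels give no replicate numbers shared between groups.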
